A study of Mus musculus with 9 samples.

Results

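Fibroblast growth factor 23 (Fgf23) and 8 genes that sense, process or answer to it were examined in the dermis of mouse ears with psoriasis-like dermatitis. They made up 9 of the 52550 genes in the count table. Fgf23 was chosen by its own higher level under imiquimod in these libraries, so that difference is a description here and carries no test. The other 8 genes were chosen for their roles, namely the coreceptor Kl, the receptor Fgfr1, Phex and Dmp1, Galnt3 and Fam20c, and the transporters Slc20a1 and Slc20a2.

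RNA was sequenced from dermal ear sheets of wild-type male C57BL/6 mice (C57BL/6J in the methods) aged 8 weeks, in 3 groups of 3 libraries. The VAS+H2O group had vaseline on the ear for 5 days and water by gavage for 10 days, at 200 µl. The IMQ+H2O group had imiquimod cream, a Toll-like receptor agonist that gives psoriasis-like dermatitis, and the same water. The IMQ+XYF group had imiquimod cream on the ear and, in place of water, Xiao-Yin-Fang (XYF), which is a herbal decoction. The labels do not say that libraries of a group came from separate animals, and the methods speak of sheets from more than 1 mouse, so p-values measure only the spread between these libraries. Where 3 log2 fold changes, adjusted p or counts of genes stand in a row, the first is for IMQ+H2O against VAS+H2O, the next for IMQ+XYF against the same controls and the last for IMQ+XYF against IMQ+H2O, and 3 CPM values in a row are replicates 1, 2 and 3. Libraries held 28756305 to 79836881 counts in total. A count of 0 was below a floor of 3 counts, or 0.0373 to 0.103 CPM (read counts scaled to library size), which covers counting error only.

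FGF23 is a hormone made mainly by osteocytes and osteoblasts of bone. In the kidney it acts through FGF receptors bound to the coreceptor Klotho, lowers phosphate reabsorption and suppresses the making of active vitamin D. The intact hormone is active, and cleavage by furin-type proteases ends its phosphate-lowering action. GALNT3 adds a sugar inside the cleavage site, which protects the hormone, and FAM20C phosphorylates the residue next to it, which favours cleavage. PHEX and DMP1 are bone proteins whose loss raises FGF23, and inflammation, iron deficiency and lipocalin-2 are known to raise its transcription.

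Fgf23 (ENSMUSG00000000182) lies on the plus strand of GRCm38 at chr6:127072902-127081408 and has 3 exons, 1 annotated transcript and 1814 exon bases. The coding bases around the protease site are shown because Galnt3 and Fam20c act there. They lie in exon 3 at chr6:127080224-127080283, plus strand, and the capitals mark codons 176 to 179 of 251, the cleavage site, 1 of 4 places in the frame with this spacing of basic codons.
Fgf23 cleavage site: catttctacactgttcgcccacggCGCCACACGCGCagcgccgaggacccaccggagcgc

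The 250 bases before the start of Fgf23 are shown because the transcript level of this gene was the largest difference among the members. They come from RefSeq on GRCm38.p6, plus strand, chr6:127072652-127072901, and the capitals mark matches to the motifs searched.
Fgf23 promoter: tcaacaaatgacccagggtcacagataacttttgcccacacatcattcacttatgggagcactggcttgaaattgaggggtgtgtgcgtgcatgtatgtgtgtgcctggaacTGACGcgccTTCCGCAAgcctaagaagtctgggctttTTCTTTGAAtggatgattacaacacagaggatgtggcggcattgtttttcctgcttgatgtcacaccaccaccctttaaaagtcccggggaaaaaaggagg

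A total of 9 motifs were searched on both strands, and 3 of them matched. TGACG, the core that cyclic AMP response element (CRE) binding factors read, began 138 bases before the start and is held by 17.9% of 27025 promoters of this length. A C/EBP-type match, TTGCNNAA read on the reverse strand, began 129 bases before the start and is held by 9.6% of promoters. A STAT-type match, TTCNNNGAA, began 101 bases before the start and is held by 7.2%. The letters of a TATA box (TATAAA, 13.0% of promoters), AP-1 (TGANTCA, 6.9%), NF-kB (17.3%), HIF (ACGTG, 16.6%), the full CRE (TGACGTCA, which contains the shorter core, 1.6%) and the nuclear receptor core AGGTCA (13.8%) were not in this window. These matches describe letters only. RefSeq promoters were matched for 7 of the 9 members.

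Fgf23 was near the lower limit of measurement in control dermis and well above it in all 6 libraries given imiquimod. The 3 VAS+H2O libraries held 16, 25 and 24 counts of Fgf23, which were 0.388, 0.694 and 0.321 CPM after TMM scaling for library size and composition. The IMQ+H2O libraries held 296, 2450 and 1527 counts, or 10.2, 59.4 and 29.8 CPM. The IMQ+XYF libraries held 2045, 483 and 2904 counts, or 25.4, 9.82 and 47.1 CPM. The lowest imiquimod library stood 14.1 times above the highest control library, so the imiquimod and control libraries did not overlap. The means were 0.468 ± 0.199 CPM in VAS+H2O, 33.1 ± 24.8 CPM in IMQ+H2O and 27.5 ± 18.7 CPM in IMQ+XYF (SD, n = 3 each).

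For IMQ+H2O against VAS+H2O the fitted log2 fold change of Fgf23 was 6.19 (SE 0.87), given as a description because this difference chose the gene. For IMQ+XYF against VAS+H2O it was 5.92 (SE 0.86), with a 95% interval from 15.6-fold to 236-fold. This comparison again sets imiquimod against the same VAS+H2O libraries, so its value is a description too and carries no test. Over all alternatives the log2 fold change lay between 5.46 and 6.62 for IMQ+H2O and between 5.28 and 6.38 for IMQ+XYF against VAS+H2O.

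Within each imiquimod group the spread of Fgf23 was wide. The highest library was 5.83 times the lowest in IMQ+H2O and 4.80 times the lowest in IMQ+XYF, against 2.16 times in VAS+H2O. The IMQ+XYF and IMQ+H2O libraries overlapped, with a log2 fold change of -0.27 (SE 0.66) and an edgeR quasi-likelihood Benjamini-Hochberg adjusted p of 0.891. Its 95% interval, -1.77 to 1.22, spans a fall of 3.40-fold and a rise of 2.34-fold, so a change of Fgf23 with XYF within that range was not detectable here. The sign turned without IMQ+H2O replicate 2 (0.46) and without IMQ+XYF replicate 2 (0.16).

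**Figure D1:**
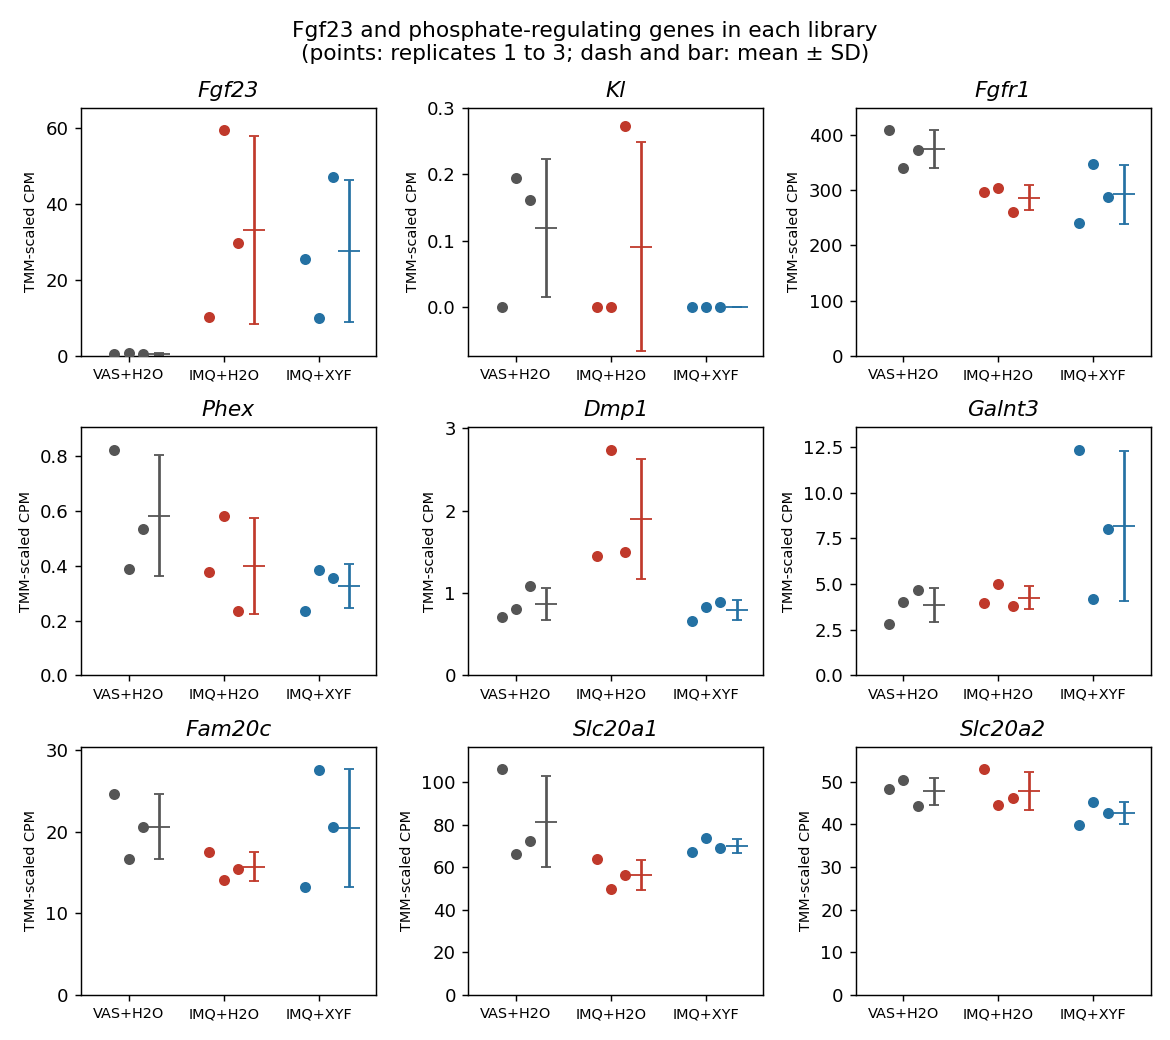
TMM-scaled CPM of the 9 genes in each library, with 1 panel per gene, 1 point per replicate, and the mean ± SD of each group beside the points. All 6 imiquimod libraries lie above the 3 control libraries for Fgf23, whereas Dmp1 is high in the IMQ+H2O group and Galnt3 in 2 of 3 IMQ+XYF libraries.

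Per kilobase of exon, which allows levels of different genes to be compared, Fgf23 changed its place among the members. In VAS+H2O the mean levels ran from Fgfr1 (38.0 CPM per kb) through Slc20a1 (14.6), Slc20a2 (7.68), Fam20c (3.13), Galnt3 (0.878), Dmp1 (0.313), Fgf23 (0.258) and Phex (0.0927) to Kl (0.0127). Neighbours in that order did not overlap between libraries, apart from Dmp1 and Fgf23. In IMQ+H2O Fgf23 was second at 18.3 ± 13.7 CPM per kb and in IMQ+XYF it was second at 15.1 ± 10.3 (SD, n = 3 each), with libraries that overlapped those of Fgfr1 above it and Slc20a1 below it.

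The other FGF ligand genes were compared with it. Of the 22 FGF ligand genes, Fgf23 had the 13th highest mean level per kilobase in VAS+H2O and the 2nd highest in both imiquimod groups, after Fgf7, the keratinocyte growth factor made by dermal fibroblasts, whose libraries overlapped its own. Fgf18, the highest in VAS+H2O, was 3rd in both imiquimod groups, and its libraries overlapped those of Fgf23 there too. The 2nd place of Fgf23 is therefore a place by mean only. Of the 21 other ligand genes 17 were tested, and none was called by edgeR in any comparison. At an unadjusted edgeR p under 0.05 there were 4, 3 and 2 of the 17 (20.9%, 18.3% and 11.7% of all genes), and DESeq2 called Fgf9 lower in the first comparison. Their log2 fold changes ran from -1.35 to 1.11 for IMQ+H2O against VAS+H2O and from -1.84 to 0.55 for IMQ+XYF against VAS+H2O. Fgf7 itself was at 44.1, 48.9 and 48.3 CPM in VAS+H2O, 47.7, 75.9 and 80.4 in IMQ+H2O, and 64.3, 69.5 and 73.7 in IMQ+XYF. Fgf9, a ligand with roles in mesenchyme, had the lowest of those log2 fold changes in the first comparison, -1.35 (SE 0.35, edgeR Benjamini-Hochberg adjusted p 0.087). Fgf15 and Fgf21, the other hormones of the family, had too few counts to be tested.

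**Figure D2:**
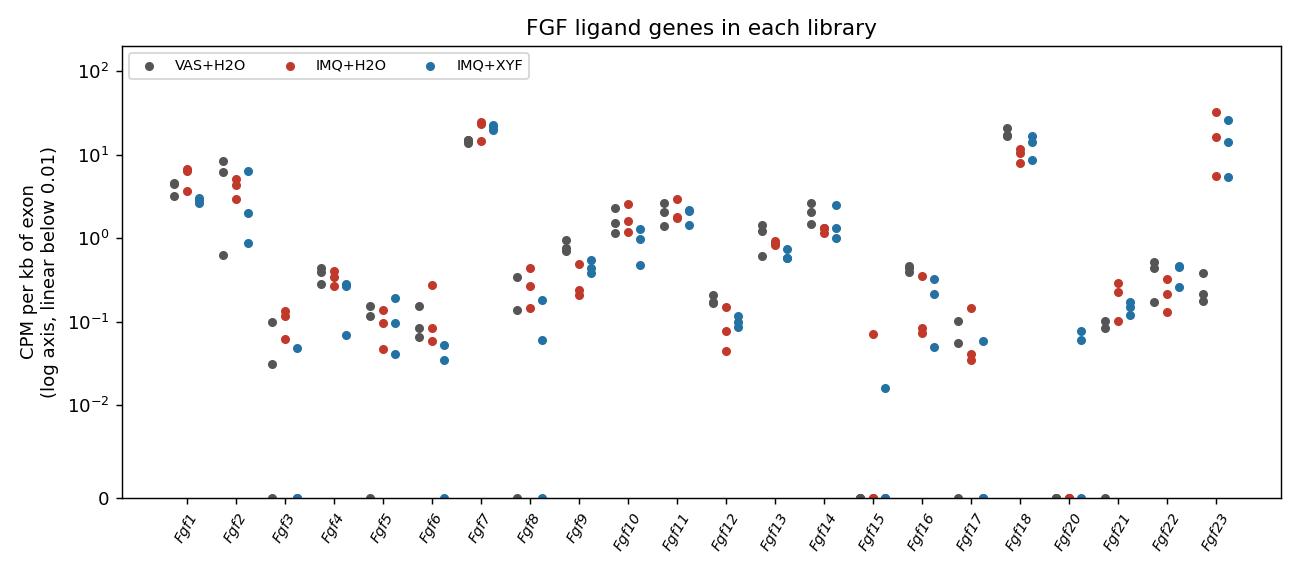
Level of each of the 22 FGF ligand genes in each library, in CPM per kb of exon on a log axis that is linear below 0.01, with points coloured by group. Fgf23 is the gene at the right edge, where the imiquimod libraries lie between 5.41 and 32.7 CPM per kb and the control libraries between 0.177 and 0.383.

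Of the 7 tested members other than Fgf23, the edgeR test called 0 in each comparison, where 0.994%, 1.20% and 0.00892% of all 22430 tested genes were called. Fgf23 itself was past the limits in both comparisons with VAS+H2O, which is how it was chosen and is read as no result. A call needed a Benjamini-Hochberg adjusted p of 0.05 or lower and an absolute log2 fold change of 1 or higher. At an unadjusted edgeR p under 0.05 there were 4, 3 and 2 of the 8 tested members, Fgf23 being among the first 4 and the first 3, beside 20.9%, 18.3% and 11.7% of all genes. DESeq2 with the same limits called Dmp1 in the first comparison, Galnt3 in the second and Dmp1 in the last, where it called 3.88%, 3.46% and 1.14% of all genes. The median log2 fold change of the 8 tested members was -0.19, -0.15 and -0.07 in these comparisons, beside -0.02, -0.02 and 0.01 over all tested genes.

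Libraries of the groups did not overlap for 4 members in IMQ+H2O against VAS+H2O (31.5% of all genes), for Fgf23 and Dmp1 above and Fgfr1 and Slc20a1 below. They did not overlap for 2 members in IMQ+XYF against VAS+H2O (22.1% of all genes), Fgf23 above and Phex below. The 2 members without overlap in IMQ+XYF against IMQ+H2O (18.0% of all genes) were Slc20a1 above and Dmp1 below.

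**Figure D3:**
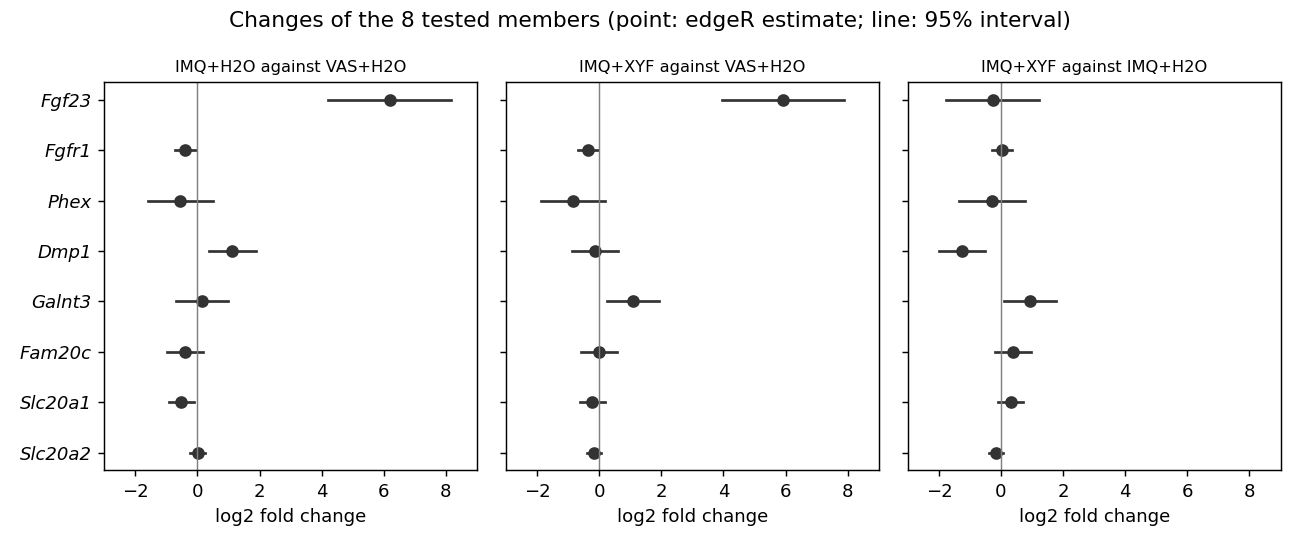
Fitted log2 fold changes (points) with 95% intervals (lines) of the 8 tested members in the 3 comparisons, on a common axis. The Fgf23 estimates against VAS+H2O are 6.19 and 5.92, and all estimates of the other members lie between -1.26 and 1.12.

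Klotho (Kl, chr5:150952607-150993817, plus strand), the coreceptor that gives FGF receptors their affinity for FGF23, was barely detected. Its counts were 0, 7 and 12 in VAS+H2O, 0, 0 and 14 in IMQ+H2O, and 0 in each IMQ+XYF library, so it failed the filter on low counts and was not tested. Summed over a group, Kl was at 0.125 CPM in VAS+H2O (exact Poisson 95% interval 0.0753 to 0.195) and at 0.115 CPM in IMQ+H2O (0.0629 to 0.193). The count of 0 in IMQ+XYF allows up to 0.0157 CPM at 3 counts over the group, and its exact Poisson upper limit was 0.0193 CPM. These intervals cover counting error only and leave out the spread between libraries, which was large, since 6 of the 9 libraries held no count.

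Fgfr1 (chr8:25513654-25575718, plus strand), a receptor that binds FGF23 together with Klotho, was the most abundant member. It was at 410, 342 and 374 CPM in VAS+H2O, 296, 304 and 261 CPM in IMQ+H2O, and 241, 349 and 289 CPM in IMQ+XYF. Every IMQ+H2O library lay below every VAS+H2O library, while the IMQ+XYF libraries overlapped both groups. The log2 fold changes were -0.39 (SE 0.15) and -0.36 (SE 0.15) against VAS+H2O, with edgeR Benjamini-Hochberg adjusted p of 0.185 and 0.240, and 0.03 (SE 0.15) between the imiquimod groups. An antisense gene shares 164 exon bases with Fgfr1, 1.66% of its exons, and without strand the reads of overlapping genes cannot be told apart.

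Fgfr3 and Fgfr2, other FGF receptor genes, were lower in every IMQ+H2O library than in every library of both other groups. None of the 6 tested genes in the list of other endocrine FGF ligands, klothos and receptors was called by edgeR in any comparison, with 3, 0 and 3 of them at an unadjusted p under 0.05 (20.9%, 18.3% and 11.7% of all genes), and their median log2 fold change was -0.84, -0.03 and 0.84. Fgfr3, a receptor of cartilage and epithelium, was at 254, 153 and 145 CPM in VAS+H2O, 93.2, 58.5 and 73.0 in IMQ+H2O, and 142, 317 and 226 in IMQ+XYF. Its log2 fold change was -1.30 (SE 0.33, adjusted p 0.0854) for IMQ+H2O against VAS+H2O and 1.61 (SE 0.33, adjusted p 0.358) for IMQ+XYF against IMQ+H2O, both by edgeR with Benjamini-Hochberg adjustment, and DESeq2 called both. Fgfr2, chosen after its values were seen, was at 169, 147 and 151 CPM, then 86.7, 80.1 and 75.9, then 143, 216 and 117 in the same groups, with adjusted p of 0.0615 and 0.360 by the same edgeR test.

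Cartilage markers had the same order of libraries as Fgfr3 within each imiquimod group and another order within VAS+H2O. The summed level of 10 chondrocyte markers was 1244 to 2151 CPM in VAS+H2O, 375 to 573 in IMQ+H2O and 709 to 2130 in IMQ+XYF, and it was 709, 2130 and 1218 CPM in IMQ+XYF replicates 1, 2 and 3. All 9 tested markers had every IMQ+H2O library below every VAS+H2O library (31.5% of all genes did not overlap), and Matn1 was at 0 throughout. By edgeR, 2 of the 9 were called lower there, Col2a1 and Matn3 (0.994% of all genes), and 0 in the other comparisons. DESeq2 called 9, 2 and 7 of them (3.88%, 3.46% and 1.14% of all genes). At an unadjusted edgeR p under 0.05 there were 9, 2 and 8 (20.9%, 18.3% and 11.7%). The part of cartilage in the receptor values was not tested, and in bulk tissue fewer cells of a type and less RNA per cell cannot be told apart.

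Genes that FGF receptor signalling is known to induce had no call. None of 14 tested targets (sprouty, spred and dual-specificity phosphatase genes, ETS factors and others) was called by edgeR or DESeq2 in any comparison, and 2, 3 and 2 of them had an unadjusted edgeR p under 0.05 (20.9%, 18.3% and 11.7% of all genes), with median log2 fold changes of -0.25, -0.19 and 0.16. Egr1, an immediate early transcription factor, was at 1175 to 1337 CPM in IMQ+H2O and 1774 to 2769 CPM in VAS+H2O, without overlap, for a log2 fold change of -0.81 (SE 0.21, edgeR Benjamini-Hochberg adjusted p 0.0854).

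Galnt3 (chr2:66082766-66124994, minus strand), whose enzyme protects FGF23 from cleavage, was at 2.81, 4.03 and 4.69 CPM in VAS+H2O, 3.96, 4.99 and 3.80 CPM in IMQ+H2O, and 12.3, 4.19 and 7.98 CPM in IMQ+XYF. IMQ+XYF replicates 1 and 3 were above all other libraries and replicate 2 was among them. The log2 fold change was 0.14 (SE 0.37) for IMQ+H2O against VAS+H2O, 1.09 (SE 0.37) for IMQ+XYF against VAS+H2O and 0.94 (SE 0.37) for IMQ+XYF against IMQ+H2O. The edgeR Benjamini-Hochberg adjusted p was 0.851, 0.161 and 0.395. DESeq2 called the middle comparison at an adjusted p of 0.0446, and edgeR called it without IMQ+XYF replicate 2 at an adjusted p of 0.0246 and a log2 fold change of 1.45.

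Epidermal keratinocyte markers had the same order of libraries as Galnt3 within IMQ+XYF and another order within VAS+H2O and within IMQ+H2O. The summed level of 10 markers was 15246, 4106 and 7217 CPM in IMQ+XYF replicates 1, 2 and 3. It was 4274, 6008 and 3297 CPM in VAS+H2O and 2404, 3665 and 2818 CPM in IMQ+H2O. No marker was at 0 in any group. By edgeR, 1 of the 10, Krt16, was called higher in IMQ+XYF against VAS+H2O (1.20% of all genes), and 0 in the other comparisons. DESeq2 called 1, 4 and 3 of the 10 (3.88%, 3.46% and 1.14% of all genes). At an unadjusted edgeR p under 0.05 there were 2, 6 and 8 (20.9%, 18.3% and 11.7%). The log2 fold change was positive for 4, 10 and 10 of them. The part of epidermal RNA in the Galnt3 values was not tested.

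Fam20c (chr5:138754514-138810077, plus strand), the kinase of secreted proteins that acts beside the cleavage site, was at 24.7, 16.7 and 20.6 CPM in VAS+H2O, 17.6, 14.1 and 15.5 CPM in IMQ+H2O, and 13.2, 27.6 and 20.6 CPM in IMQ+XYF. The groups overlapped in every comparison. The log2 fold changes were -0.39, -0.01 and 0.38 (SE 0.26 each), with 95% intervals of -0.98 to 0.19, -0.60 to 0.57 and -0.21 to 0.96.

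Of the 5 genes for other secretory proteases and for the FAM20C partner Fam20a, edgeR called 1, 0 and 0 (0.994%, 1.20% and 0.00892% of all genes). An unadjusted edgeR p under 0.05 was found for 2, 2 and 1 (20.9%, 18.3% and 11.7% of all genes), and DESeq2 called 0 in each comparison. Pcsk6, a convertase of the furin family, was at 118, 113 and 120 CPM in VAS+H2O, 59.9, 62.5 and 52.4 in IMQ+H2O, and 73.0, 98.4 and 78.6 in IMQ+XYF. It fell by 1.01 on the log2 scale (SE 0.13, edgeR Benjamini-Hochberg adjusted p 0.0166) in IMQ+H2O against VAS+H2O, a change near the fold limit, and stood at -0.49 (SE 0.13, adjusted p 0.0832 by the same edgeR test) in IMQ+XYF against VAS+H2O. It was no longer called in the first comparison under 8 of 14 alternatives, 5 of which left out VAS+H2O replicate 2 or 3, IMQ+H2O replicate 2 or 3 or IMQ+XYF replicate 2, and its log2 fold change over all alternatives ran from -1.06 to -0.92. Furin, the main convertase of the secretory pathway and chosen after its values were seen, was at 141, 151 and 134 CPM, then 130, 142 and 138, then 135, 145 and 162, with overlap of all groups.

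Dmp1 (chr5:104202613-104214102, plus strand), a mineral-binding matrix protein of osteocytes, had IMQ+H2O libraries that stood apart from both other groups. It was at 0.703, 0.806 and 1.08 CPM in VAS+H2O, 1.45, 2.74 and 1.50 CPM in IMQ+H2O, and 0.659, 0.833 and 0.892 CPM in IMQ+XYF, from 29 to 113 counts per library. The 3 IMQ+H2O libraries lay above all 6 others. The log2 fold change was 1.12 (SE 0.33) for IMQ+H2O against VAS+H2O and -1.26 (SE 0.33) for IMQ+XYF against IMQ+H2O, comparisons that share the IMQ+H2O libraries. Neither was called by edgeR, with Benjamini-Hochberg adjusted p of 0.118 and 0.364, and both were called by DESeq2 at adjusted p of 0.0354 and 0.0432. For IMQ+XYF against VAS+H2O it was -0.13 (SE 0.33), with a 95% interval of -0.88 to 0.62.

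Phex (chrX:157162075-157415312, minus strand), a membrane endopeptidase of osteoblasts and osteocytes whose loss causes hypophosphatemia, was lower still. It was at 0.824, 0.389 and 0.536 CPM in VAS+H2O, 0.379, 0.582 and 0.234 CPM in IMQ+H2O, and 0.236, 0.386 and 0.357 CPM in IMQ+XYF, from 11 to 40 counts per library. The IMQ+XYF libraries lay just below all VAS+H2O libraries, by 0.386 against 0.389 CPM at the nearest pair. The log2 fold changes were -0.55 (SE 0.46), -0.84 (SE 0.46) and -0.29 (SE 0.47), none of them called, with edgeR Benjamini-Hochberg adjusted p of 0.521, 0.372 and 0.830.

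Markers of the bone cells that normally make FGF23 were low in every group. The summed level of 10 osteoblast and osteocyte markers, which include Phex and Dmp1, was 27.3 to 53.7 CPM in VAS+H2O, 31.5 to 39.3 in IMQ+H2O and 26.8 to 46.3 in IMQ+XYF, and none of the 7 tested was called by edgeR, with 1, 1 and 2 of them at an unadjusted p under 0.05 (20.9%, 18.3% and 11.7% of all genes). DESeq2 called Dmp1 as above and Sost, the osteocyte inhibitor of Wnt signalling, which was at 2.79, 2.94 and 2.88 CPM in VAS+H2O, 4.48, 2.91 and 2.03 CPM in IMQ+H2O, and 1.41, 1.69 and 1.01 CPM in IMQ+XYF, lower in IMQ+XYF than in both other groups. Mepe, a defining osteocyte marker, was at 0 in VAS+H2O and IMQ+H2O and held 7, 4 and 5 counts in IMQ+XYF, and the osteocalcin gene Bglap2 was at 0 in IMQ+H2O and IMQ+XYF. Bglap, the other osteocalcin gene, had at most 3 counts in every imiquimod library.

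By edgeR, 0, 1 and 0 of the 9 tested mineralization and matrix regulators were called (0.994%, 1.20% and 0.00892% of all genes). The called gene was Alpl, tissue-nonspecific alkaline phosphatase. It was at 3.15, 3.94 and 5.89 CPM in VAS+H2O, 15.3, 17.9 and 30.4 CPM in IMQ+H2O, and 19.9, 12.4 and 38.8 CPM in IMQ+XYF, with every imiquimod library above every control library. Its log2 fold change was 2.29 (SE 0.46, adjusted p 0.0528) for IMQ+H2O and 2.45 (SE 0.46, adjusted p 0.0411) for IMQ+XYF against VAS+H2O, by edgeR with Benjamini-Hochberg adjustment, so it rose by the test in IMQ+XYF, and the difference between the imiquimod groups was 0.16 (SE 0.43, adjusted p 0.903). DESeq2 called both comparisons with VAS+H2O. The IMQ+XYF call was lost with edgeR under 9 of 14 alternatives, with adjusted p up to 0.143, among them leaving out any 1 library other than IMQ+XYF replicate 2. The median log2 fold change of the 9 genes was -0.40, -0.27 and 0.17. At an unadjusted edgeR p under 0.05 there were 6, 4 and 2 of the 9 (20.9%, 18.3% and 11.7% of all genes). DESeq2 also called Enpp1 in IMQ+H2O against VAS+H2O, Phospho1 and Sost in IMQ+XYF against VAS+H2O, and Sost between the imiquimod groups.

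Slc20a1 (chr2:129198764-129211616, plus strand), a sodium-phosphate cotransporter of most cells, was at 106, 66.1 and 72.5 CPM in VAS+H2O, 63.8, 49.6 and 56.4 CPM in IMQ+H2O, and 67.3, 73.8 and 69.2 CPM in IMQ+XYF. The IMQ+H2O libraries lay below both other groups. The log2 fold change was -0.53 (SE 0.18, adjusted p 0.149) for IMQ+H2O against VAS+H2O and 0.31 (SE 0.18, adjusted p 0.507) for IMQ+XYF against IMQ+H2O, by edgeR with Benjamini-Hochberg adjustment. Opposite-strand genes share 280 and 452 exon bases with it, 5.02% and 8.10% of its exons.

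Slc20a2 (chr8:22476788-22569612, plus strand), the second cotransporter of this family, was the steadiest member. Its libraries were at 48.4, 50.5 and 44.4 CPM in VAS+H2O, 52.9, 44.5 and 46.2 CPM in IMQ+H2O, and 39.9, 45.2 and 42.8 CPM in IMQ+XYF, with overlap of all groups. The 95% intervals of its log2 fold changes were -0.23 to 0.23, -0.39 to 0.07 and -0.40 to 0.06. The opposite-strand gene Smim19 shares 95 of its exon bases (1.53%).

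The phosphate exporter Xpr1 was as steady, at 47.1 to 53.4 CPM over all 9 libraries, with log2 fold changes of -0.00, -0.06 and -0.05 (SE 0.08 each). Of the renal and intestinal cotransporters, Slc34a1 and Slc34a3 had too few counts to be tested, and Slc34a2 ranged from 1.29 to 9.12 CPM with overlap of all groups. Neither Xpr1 nor Slc34a2 was called by edgeR or DESeq2 or had an unadjusted edgeR p under 0.05. Of the vitamin D and parathyroid hormone genes 7 of 9 were tested and none was called by edgeR or DESeq2, with median log2 fold changes of -0.43, -0.33 and 0.09. An unadjusted edgeR p under 0.05 was found for 2, 1 and 0 of the 7 (20.9%, 18.3% and 11.7% of all genes). Rxra, the partner of the vitamin D receptor, was at 129 to 151 CPM in IMQ+H2O and 169 to 186 CPM in VAS+H2O (log2 fold change -0.34, SE 0.12, edgeR Benjamini-Hochberg adjusted p 0.161). Pthlh, the parathyroid hormone-related peptide, ranged from 5.48 to 16.2 CPM with overlap. Cyp24a1, the vitamin D hydroxylase that FGF23 induces in kidney, was not tested for want of counts.

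Of 12 genes known to raise Fgf23, all tested, edgeR called 1, 1 and 0 (0.994%, 1.20% and 0.00892% of all genes), and 2, 4 and 1 had an unadjusted p under 0.05 (20.9%, 18.3% and 11.7%). Lcn2, lipocalin-2, a siderophore-binding protein of neutrophils and epithelium, was at 20.5, 32.2 and 22.4 CPM in VAS+H2O, 188, 215 and 296 CPM in IMQ+H2O, and 147, 140 and 163 CPM in IMQ+XYF. It rose by a log2 fold change of 3.22 (SE 0.23, adjusted p 0.00255) in IMQ+H2O and 2.58 (SE 0.22, adjusted p 0.0107) in IMQ+XYF against VAS+H2O, by edgeR with Benjamini-Hochberg adjustment. The value between the imiquimod groups was -0.63 (SE 0.21), with an adjusted p of 0.367 by the same edgeR test. The median of the list was 0.15, 0.12 and -0.00. DESeq2 also called Il1a, the cytokine interleukin-1 alpha, higher in IMQ+XYF against VAS+H2O. It was at 0.170, 2.47 and 0.455 CPM in VAS+H2O, 3.24, 2.59 and 4.52 CPM in IMQ+H2O, and 12.7, 5.02 and 16.1 CPM in IMQ+XYF, with an edgeR Benjamini-Hochberg adjusted p of 0.0744 in that comparison.

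The cytokine Il6, another gene of that list, was at 15.4, 107 and 77.3 CPM in VAS+H2O, 41.8, 167 and 135 CPM in IMQ+H2O, and 85.4, 42.3 and 118 CPM in IMQ+XYF. Its libraries overlapped between all groups, with log2 fold changes of 0.79 (SE 0.71) and 0.30 (SE 0.70) against VAS+H2O.

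Genes whose pattern lay nearest to that of Fgf23 were ranked by the root mean square difference of centred log2 CPM among 14518 genes, so that a low value means a like pattern. Over all 9 libraries the nearest were Il19 (0.798), Fpr1 (0.799), S100a8 (0.818), Mrgpra2b (0.856), Cxcl3 (0.865), S100a9 (0.869), Cd300lf (0.919) and Stfa2l1 (0.934), against a median of 2.84. This order is mostly set by the difference between imiquimod and control libraries that chose Fgf23. Il19, a cytokine of the IL-10 family, was at 0 to 0.0833 CPM in VAS+H2O, 3.99, 7.76 and 11.9 in IMQ+H2O, and 5.47, 5.57 and 13.7 in IMQ+XYF.

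Over the 6 imiquimod libraries alone, where Fgf23 varied 6.05-fold, the nearest were Cxcl5 (0.261), Tnfaip6 (0.300), Plcb2 (0.305), Il6 (0.320), Alox15 (0.340), Padi3 (0.340), Kmo (0.346) and Tnc (0.349), against a median of 0.999. Padi3 reached the mean of 1 CPM only through VAS+H2O, at 2.04, 3.61 and 6.13 CPM. In the imiquimod libraries Padi3 was at 0 to 0.194 CPM, near the floor, so its place is not read as a like pattern. The chemokine gene Cxcl5 was at 22.7, 151 and 101 CPM in IMQ+H2O and 62.0, 29.5 and 173 CPM in IMQ+XYF, the same order of libraries within each group as Fgf23. It was at 0.146, 0.167 and 0.402 CPM in VAS+H2O. Tnfaip6, a hyaluronan-binding protein, was at 33.8, 123 and 80.9 CPM in IMQ+H2O and 80.9, 34.2 and 99.99 CPM in IMQ+XYF, but at 23.9, 138 and 81.8 CPM in VAS+H2O, where Fgf23 was low in every library. Tnc, the matrix protein tenascin-C, was at 145, 501 and 350.5 CPM, then 297, 160 and 822 CPM, in the imiquimod groups, and at 88.1 to 118 CPM in VAS+H2O.

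**Figure D4:**
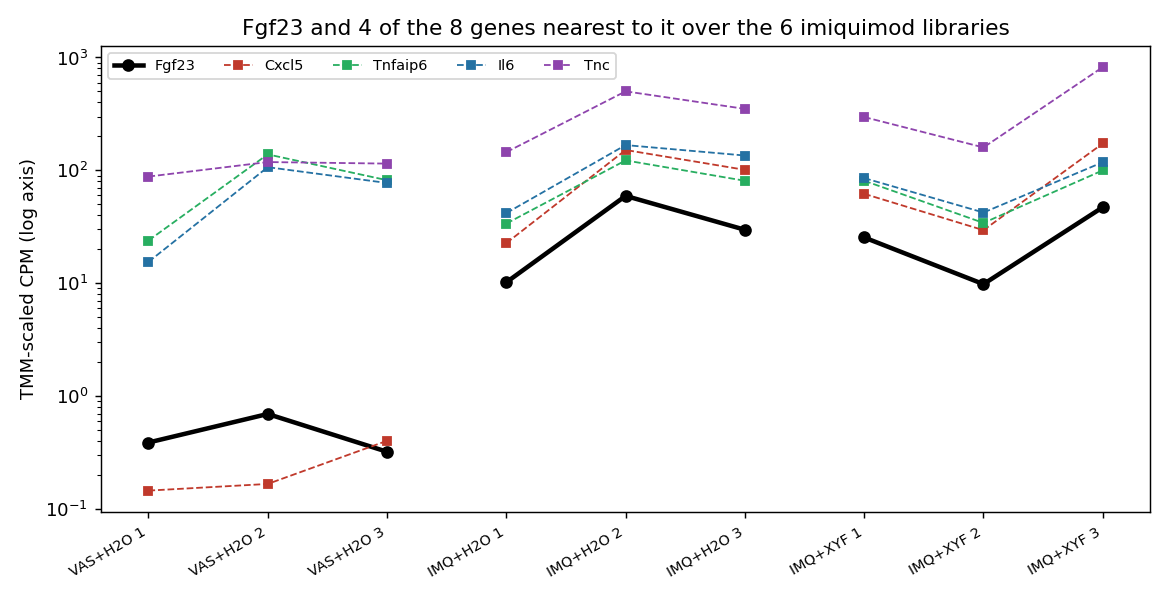
TMM-scaled CPM (log axis) of Fgf23 and of Cxcl5, Tnfaip6, Il6 and Tnc in each library, with lines joining the replicates of a group only to guide the eye. Replicate 1 of IMQ+H2O and replicate 2 of IMQ+XYF are the lowest of their groups for all 5 genes, and in VAS+H2O Tnfaip6, Il6 and Tnc are well detected while Fgf23 is at most 0.694 CPM and Cxcl5 at most 0.402 CPM.

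Of the other members, Galnt3 (rank 939 of 14518 over all libraries, 4754 over the imiquimod libraries) and Dmp1 (ranks 1262 and 5142) lay nearest to Fgf23, and Fgfr1 lay at ranks 11952 and 10454. These ranks come from few libraries, which also share their group, and are given as a description.

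Several neutrophil markers rose in the same groups as Fgf23. The summed level of 10 markers was 128 to 161 CPM in VAS+H2O. It was 385, 514 and 925 CPM in IMQ+H2O replicates 1, 2 and 3, and 497, 237 and 669 CPM in IMQ+XYF replicates 1, 2 and 3. By edgeR, 5 of the 9 tested were called higher in IMQ+H2O and 4 in IMQ+XYF against VAS+H2O (0.994% and 1.20% of all genes). DESeq2 called 8, 7 and 0 of the 9 (3.88%, 3.46% and 1.14% of all genes). At an unadjusted edgeR p under 0.05 there were 8, 8 and 0 (20.9%, 18.3% and 11.7%). Ly6g and Stfa2l1 were at 0 in VAS+H2O. The sums had the same order of libraries as Fgf23 within IMQ+XYF and another order within IMQ+H2O, where Fgf23 was highest in replicate 2 and the sum in replicate 3. Fibroblast markers, which define the dermis, were high in all libraries at 10789 to 26053 CPM summed over 8 markers, with no marker called by edgeR or DESeq2. An unadjusted edgeR p under 0.05 was found for 3, 2 and 0 of the 8 (20.9%, 18.3% and 11.7% of all genes). Other material in the sheets also varied. Hair follicle markers were at 101 to 308 CPM in VAS+H2O against 10.7 to 33.5 CPM in the imiquimod libraries. Of the 9 tested, edgeR called 5, 4 and 0, all lower (0.994%, 1.20% and 0.00892% of all genes). With DESeq2 the calls were 5, 5 and 1 (3.88%, 3.46% and 1.14% of all genes). An unadjusted edgeR p under 0.05 was found for 7, 7 and 2 (20.9%, 18.3% and 11.7%). Skeletal muscle markers were at 1597 to 3398 CPM in IMQ+H2O and 162 to 1250 CPM in IMQ+XYF, and their VAS+H2O range, 695 to 3499 CPM, overlapped both. Of the 10 muscle markers edgeR called 0 in each comparison, with 0, 3 and 7 at an unadjusted p under 0.05 (20.9%, 18.3% and 11.7% of all genes). The part of any of these cells in the Fgf23 values was not tested.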

How the data were processed

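The members and all gene lists were chosen with earlier results of these data known. The deposited table holds whole-number read counts per Ensembl gene, not normalized, in 9 libraries. Per the study's methods and the submitters' processing notes, the authors aligned reads with STAR 2.5 to GRCm38 with the annotation of Ensembl release 90. The counting tool, its use of the strand and its handling of reads with several alignments are not given in the sources used here, and while the labels describe strand-specific libraries, the methods name a TruSeq kit that does not mark strand. Totals were 28756305 to 79836881 counts per library, and 16554 of 52550 genes had no count. The Poisson intervals of Kl and the floors cover counting error only. Intervals of log2 fold changes came from the edgeR fit and take in the spread between libraries. Reads carried no molecular identifiers.

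All 9 libraries entered one edgeR 4.0.16 quasi-likelihood fit (R 4.3.3) with a coefficient per group, TMM scaling and the filterByExpr filter (minimum count 10, minimum total 15), which left 22430 genes with a common biological coefficient of variation of 0.296. Standard errors of log2 fold changes were derived from the F statistic, as their size over its square root. The limits for a call, a Benjamini-Hochberg adjusted p of 0.05 and an absolute log2 fold change of 1, follow the study's methods, and DESeq2 1.42.0 was an alternative. The fit was tested on simulated data. Alternatives were DESeq2, its size factors in edgeR, no filter, a replicate block, only the 6 libraries compared, no fold limit and leaving out each library.

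Named genes were the 9 members, the genes of each other list called in any comparison (otherwise the one with the highest mean CPM and the one with the largest log2 fold change for IMQ+H2O against VAS+H2O), the 8 genes nearest to Fgf23 (prior count 2, mean of at least 1 CPM, leaving out genes named Gm or Rik), and protein-coding genes within 200 kb. Marker lists for osteoblasts and osteocytes, chondrocytes, fibroblasts, keratinocytes, hair follicle, neutrophils and skeletal muscle are described with the results. Of the others, edgeR called 1 of 10 monocyte and macrophage markers, Itgam. It was called higher in each imiquimod group against VAS+H2O (0.994% and 1.20% of all genes). Itgam has 2 rows in the counts, and the first was used. DESeq2 called Adgre1 and Itgam in both comparisons with VAS+H2O and Ly6c2 for IMQ+H2O only (3.88% and 3.46% of all genes). Of 8 endothelial markers 0 were called by edgeR or DESeq2. At an unadjusted edgeR p under 0.05 there were 3, 0 and 5 of them (20.9%, 18.3% and 11.7% of all genes), over the comparisons with VAS+H2O and between imiquimod groups. For 7 of the 8, every IMQ+H2O library was above every VAS+H2O library (31.5% of all genes did not overlap). For 7, every IMQ+XYF library was below every IMQ+H2O library (18.0% did not overlap). Between IMQ+XYF and VAS+H2O all 8 overlapped. Of 10 T cell markers edgeR called 1, Cd4, lower in IMQ+XYF against VAS+H2O (1.20% of all genes). The log2 fold change was positive for 7 of the 10 there, with a median of 0.02. DESeq2 called Cd4 there too, and Il17a higher in IMQ+H2O against VAS+H2O, where VAS+H2O had 0 counts of Il17a (3.46% and 3.88% of all genes). Of the 10, 3, 2 and 1 had an unadjusted edgeR p under 0.05 (20.9%, 18.3% and 11.7% of all genes). Positions and exons are those of GENCODE vM21 on GRCm38, and promoters those of RefSeq.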

Additional observations from a re-analysis of the deposited data

How the results depend on the processing

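Each value was recomputed under 14 alternatives, of which 9 left out 1 library each. Of 336 values for the 8 tested members, 303 kept their direction and their side of the limits, 13 lost a call (all of them of Fgf23 against VAS+H2O), 4 gained one and 16 changed sign. The number of members called for IMQ+H2O against VAS+H2O was 2 with DESeq2, 0 with the replicate block and 0 to 1 when a library was left out (0 without any 1 VAS+H2O library and without IMQ+H2O replicate 2 or 3). For IMQ+XYF against VAS+H2O it was 2 with DESeq2, 0 with the replicate block, 0 with only the 6 libraries of the comparison and 0 to 2 when a library was left out (0 without any 1 VAS+H2O library and without IMQ+XYF replicate 1 or 3, 2 without IMQ+XYF replicate 2). For IMQ+XYF against IMQ+H2O it was 1 with DESeq2, 0 when any library was left out and 0 with the replicate block. Leaving off the fold limit gave 1, 1 and 0. Deviations from the group means of same-numbered libraries correlated from -0.183 to 0.125, with 1 of 9 pairs over 0.1. A pair with different numbers, VAS+H2O replicate 1 and IMQ+XYF replicate 2, reached 0.277. These correlations therefore cannot decide whether the replicate numbers pair the libraries. Values that changed sign were all small and not called. Slc20a2 for IMQ+H2O against VAS+H2O turned to -0.0045 without the filter and ranged from -0.074 to 0.051 when a library was left out, and Galnt3 ranged from -0.041 to 0.31. For IMQ+XYF against VAS+H2O, Fam20c was 0.0118 with DESeq2, 0.0119 with DESeq2 size factors and -0.24 to 0.22 when a library was left out, Dmp1 ranged from -0.26 to 0.074 and Slc20a1 from -0.35 to 0.017. For IMQ+XYF against IMQ+H2O these ranges were -0.91 to 0.46 for Fgf23, -0.088 to 0.15 for Fgfr1, -0.55 to 0.11 for Phex and -0.39 to 0.54 for Alpl. The cause was not tested. Depth limits Kl, with at most 14 counts in a library, Phex, with at most 40, Dmp1, with at most 113, and Fgf23 in VAS+H2O, with at most 25.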

Other observations

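Genes beside Fgf23 on chromosome 6 were compared with it. Within 200 kb lie 7 protein-coding genes, of which 5 were tested and none was called by edgeR or DESeq2 in any comparison, with 3, 3 and 0 of them at an unadjusted edgeR p under 0.05 (20.9%, 18.3% and 11.7% of all genes) in the comparisons of each imiquimod group with VAS+H2O and of IMQ+XYF with IMQ+H2O. Tigar, a regulator of glycolysis and the nearest at 3.7 kb after Fgf23, was at 12.1, 13.6 and 11.0 CPM in VAS+H2O, 17.9, 15.7 and 17.7 CPM in IMQ+H2O, and 21.3, 14.0 and 14.9 CPM in IMQ+XYF. Every imiquimod library lay above every control library, with log2 fold changes of 0.49 and 0.46 (SE 0.18 each, edgeR Benjamini-Hochberg adjusted p 0.170 and 0.213). Ccnd2, a cyclin of the G1 phase 43.8 kb after Fgf23, was lower in every imiquimod library than in every control library, at 126 to 181 CPM against 189 to 215 CPM, with log2 fold changes of -0.54 and -0.29 (SE 0.11 each, edgeR Benjamini-Hochberg adjusted p 0.0594 and 0.208). Fgf6, the paralog of Fgf23 that lies 44.7 kb before it and is known from muscle, was at 0 to 1.27 CPM in all libraries. Rad51ap1, a DNA repair gene 133.3 kb before Fgf23, was at 2.06 to 2.33 CPM in VAS+H2O and at 2.34 to 4.78 CPM in the imiquimod libraries, with log2 fold changes of 0.52 and 0.90 (SE 0.22 each). D6Wsu163e, 96.9 kb before it, ranged from 10.8 to 15.1 CPM, and Dyrk4 and Akap3 were not tested for want of counts.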
